A study of Mus musculus with 12 samples.

Results

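Pyruvate dehydrogenase kinases and phosphatases switch a single enzyme complex off and on, and their transcripts were followed here in nuclei from mouse brown and white fat. The members are the 7 genes Pdk1, Pdk2, Pdk3, Pdk4, Pdp1, Pdp2 and Pdha1. They were chosen by symbol among 32285 gene rows of the deposited matrices, and all 7 were found. The data are single-nucleus RNA sequencing libraries, made by the 10x Genomics 3′ droplet method from flow-sorted nuclei of male C57BL/6J mice fed normal chow. There were 12 libraries, with 1 in each group, so no difference between groups has a replicate check and no p-value is given. At room temperature (22 °C) the depots called mPRAT and iBAT were each sampled at 3 ages, namely 1, 2 and 6 months. lPRAT was sampled at the later 2 of these ages and iWAT at 6 months only. Cold exposure was 4 °C for 3 days and was applied at 6 months to mPRAT, iBAT and iWAT. The sample names give 6 months where the age field gives 16 weeks, and the shorter ages are 4 and 8 weeks in that field; the month names are used below. The labels do not spell out the depots, where m and l commonly mean the medial and lateral part of perirenal fat, iBAT interscapular brown fat, and iWAT the inguinal white depot. How many animals were behind a library is not given in the sources used here.

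The pyruvate dehydrogenase complex sits in the mitochondrial matrix and turns pyruvate into acetyl-CoA, the step that commits carbon from glucose to the citric acid cycle or to fatty acid synthesis. Its E1 alpha subunit, encoded by the X-linked gene Pdha1, carries the serines that PDK1 to PDK4 phosphorylate to switch the complex off. The phosphatase catalytic subunits PDP1 and PDP2 remove those phosphates. PDK4 is known as the fasting- and fatty-acid-induced isoform of muscle, heart, liver and fat, PDK2 as the most widely expressed one, PDK1 as a target of hypoxia signalling, and PDK3 as an isoform of few tissues. PDP1 is known to respond to calcium and PDP2 to insulin. Transcript levels say nothing of phosphorylation, which was not measured.

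On GRCm38 (mm10, GENCODE M21 annotation) Pdk1 (ENSMUSG00000006494) lies on chromosome 2 at 71873224 to 71903858, Pdk2 (ENSMUSG00000038967) on chromosome 11 at 95026258 to 95041354, and Pdk3 (ENSMUSG00000035232) on chromosome X at 93764607 to 93832201. Pdk4 (ENSMUSG00000019577) lies on chromosome 6 at 5483351 to 5496309, Pdp1 (ENSMUSG00000049225) on chromosome 4 at 11958184 to 11966452, and Pdp2 (ENSMUSG00000048371) on chromosome 8 at 104591451 to 104599026. Pdha1 (ENSMUSG00000031299) lies on chromosome X at 160122209 to 160138413. Pdk2 overlaps the antisense gene Gm11513, which had 58 UMIs over all adipocyte-like nuclei, and Pdha1 overlaps the opposite-strand gene Map3k15, which had 4664. Whether the counting used strand is not given in the sources used here.

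The 3 promoters below belong to Pdk4, Pdk2 and Pdp2, shown because their adipocyte-like levels varied together across the 12 libraries. Each holds the 250 bases before the first listed RefSeq start site, on GRCm38.p6, printed 5′ to 3′ on the gene's strand. Capitals mark matches to the E-box and the cyclic AMP response element half-site, whose letters are given after the sequences.
Pdk4, chr6:5496279-5496528, minus strand: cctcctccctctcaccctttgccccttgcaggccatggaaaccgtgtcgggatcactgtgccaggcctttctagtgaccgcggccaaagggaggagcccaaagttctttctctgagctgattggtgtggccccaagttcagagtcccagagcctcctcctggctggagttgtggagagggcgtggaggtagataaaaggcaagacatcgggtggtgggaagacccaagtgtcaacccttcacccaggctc
Pdk2, chr11:95041372-95041621, minus strand: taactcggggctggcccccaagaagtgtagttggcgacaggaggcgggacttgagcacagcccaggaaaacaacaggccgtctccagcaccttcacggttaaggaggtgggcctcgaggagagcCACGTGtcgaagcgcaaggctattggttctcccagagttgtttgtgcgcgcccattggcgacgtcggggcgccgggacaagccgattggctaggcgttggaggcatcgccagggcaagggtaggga
Pdp2, chr8:104591222-104591471, plus strand: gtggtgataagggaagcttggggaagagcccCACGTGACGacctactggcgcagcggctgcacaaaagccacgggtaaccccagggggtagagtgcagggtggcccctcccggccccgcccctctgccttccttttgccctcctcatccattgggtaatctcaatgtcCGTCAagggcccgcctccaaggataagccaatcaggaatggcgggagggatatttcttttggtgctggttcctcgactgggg

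Both strands of each window were searched for 11 short motifs. CACGTG, a palindromic E-box, occurred in Pdk2 at -126 from the start site and in Pdp2 at -219, and 6.02% of 32851 RefSeq promoters of this length hold it. TGACG occurred in Pdp2 at -215, overlapping the CACGTG, and on the opposite strand at -82; 17.8% of promoters hold it. CCAAT, held by 33.8% of promoters, occurred once in Pdk4 on the opposite strand at -131, 3 times in Pdk2 and at -101 and -55 in Pdp2, and GGGCGG, held by 32.7%, occurred once in Pdp2. The hypoxia core ACGTG, held by 16.6%, lies inside CACGTG and had no match outside it in these windows. The PPAR response element, a direct repeat held by 0.0335% of promoters, and the glucocorticoid response element, held by 0.00913%, had no match. Nor did the estrogen-related receptor element TCAAGGTCA (0.387%), the nuclear receptor site AAGGTCA (4.08%), the FOXO element GTAAACA (3.17%) or the full cyclic AMP element TGACGTCA (1.55%). The windows hold 58.8%, 62.4% and 60.8% G and C in the order printed, against a median of 52.4% over all promoters. A match is a description of letters, not evidence of binding.

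The libraries held 5461133 (lPRAT at 2 months) to 87035783 UMIs (iBAT in cold), and 96643 of 119035 barcodes passed the filters. The share of barcodes over the limit of 10% mitochondrial UMIs was 66.0% in mPRAT in cold, 22.1% in mPRAT at 2 months and 21.4% in lPRAT at 2 months, against 0.0877% to 7.42% elsewhere. Nuclei were clustered without the members and named from marker genes, and the adipocyte-like class held 1937 (lPRAT at 6 months) to 15283 nuclei (iBAT at 6 months) per library. Levels are in CPM, UMIs per 1e+06 UMIs of the summed class, with exact 95% Poisson intervals that cover counting error only. A summed list of brown adipocyte markers stood at 849 to 1646 CPM in mPRAT, 1416 to 2825 in iBAT, 11.1 and 6.12 in lPRAT, 22.9 in iWAT at room temperature and 137 in iWAT in cold. Ucp1, Cox7a1 and Dio2 were at 0 in lPRAT at 2 months. A summed list of white adipocyte markers stood at 1156 to 2038 CPM in mPRAT, 55.5 to 674 in iBAT, 4081 and 5931 in lPRAT, 3590 in iWAT at 22 °C and 2907 in iWAT at 4 °C. The mPRAT libraries thus held both, although the white marker Mest was at 0 there at 1 and 2 months. From room temperature at 6 months to cold, the mPRAT white sum went from 2038 to 1156 CPM and the brown sum from 849 to 1646 CPM. The lists hold 7 white and 5 brown genes, so the 2 sums are not on a common scale. Barcodes shared between libraries came to at most 0.734% of the smaller library.

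One cluster, holding 56.9% of the adipocyte-like nuclei of mPRAT in cold, had Ucp1 at 1177 CPM but also the urothelial genes Upk1a and Upk3a, which encode uroplakins, among its 10 leading genes. In that library Upk3a stood at 49.2 to 222 CPM in every cluster and class with 50 nuclei, the adipocyte-like ones among them. In mPRAT at 6 months at room temperature it stood at 130 CPM in the epithelial-like class and at 0 to 3.82 CPM in the others. Results on cold mPRAT are therefore given with and without this cluster where they differ. Of its nuclei 95.9% came from cold mPRAT, and it held most of the Ucp1-high nuclei there. Leaving it out thus takes Ucp1-high nuclei from cold mPRAT alone and sets a mostly Ucp1-low remainder against libraries that keep theirs, so the values without it are no estimate of a cold or depot difference in like nuclei.

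Pdk4 separated the depots by more than any other member. Its adipocyte-like level was 308, 306 and 484 CPM in mPRAT and 375, 432 and 719 CPM in iBAT at 1, 2 and 6 months, and 662 and 1048 CPM in these depots in cold. In lPRAT it was 9.06 CPM (95% interval 5.68 to 13.7, from 22 UMIs) at 2 months and 33.5 CPM at 6 months, and in iWAT it was 64.2 CPM at room temperature and 141 CPM in cold. Every mPRAT and iBAT library was above every lPRAT and iWAT library, and in the order of the 12 levels only mPRAT at 1 and 2 months were neighbours with overlapping intervals. At 6 months the level was 14.4 times that of lPRAT in mPRAT (13.2 to 15.8), 7.53 times that of iWAT in mPRAT (7.20 to 7.89) and 11.2 times that of iWAT in iBAT (10.7 to 11.7). At 2 months mPRAT was 33.7 times lPRAT (22.2 to 53.9).

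**Figure D1:**
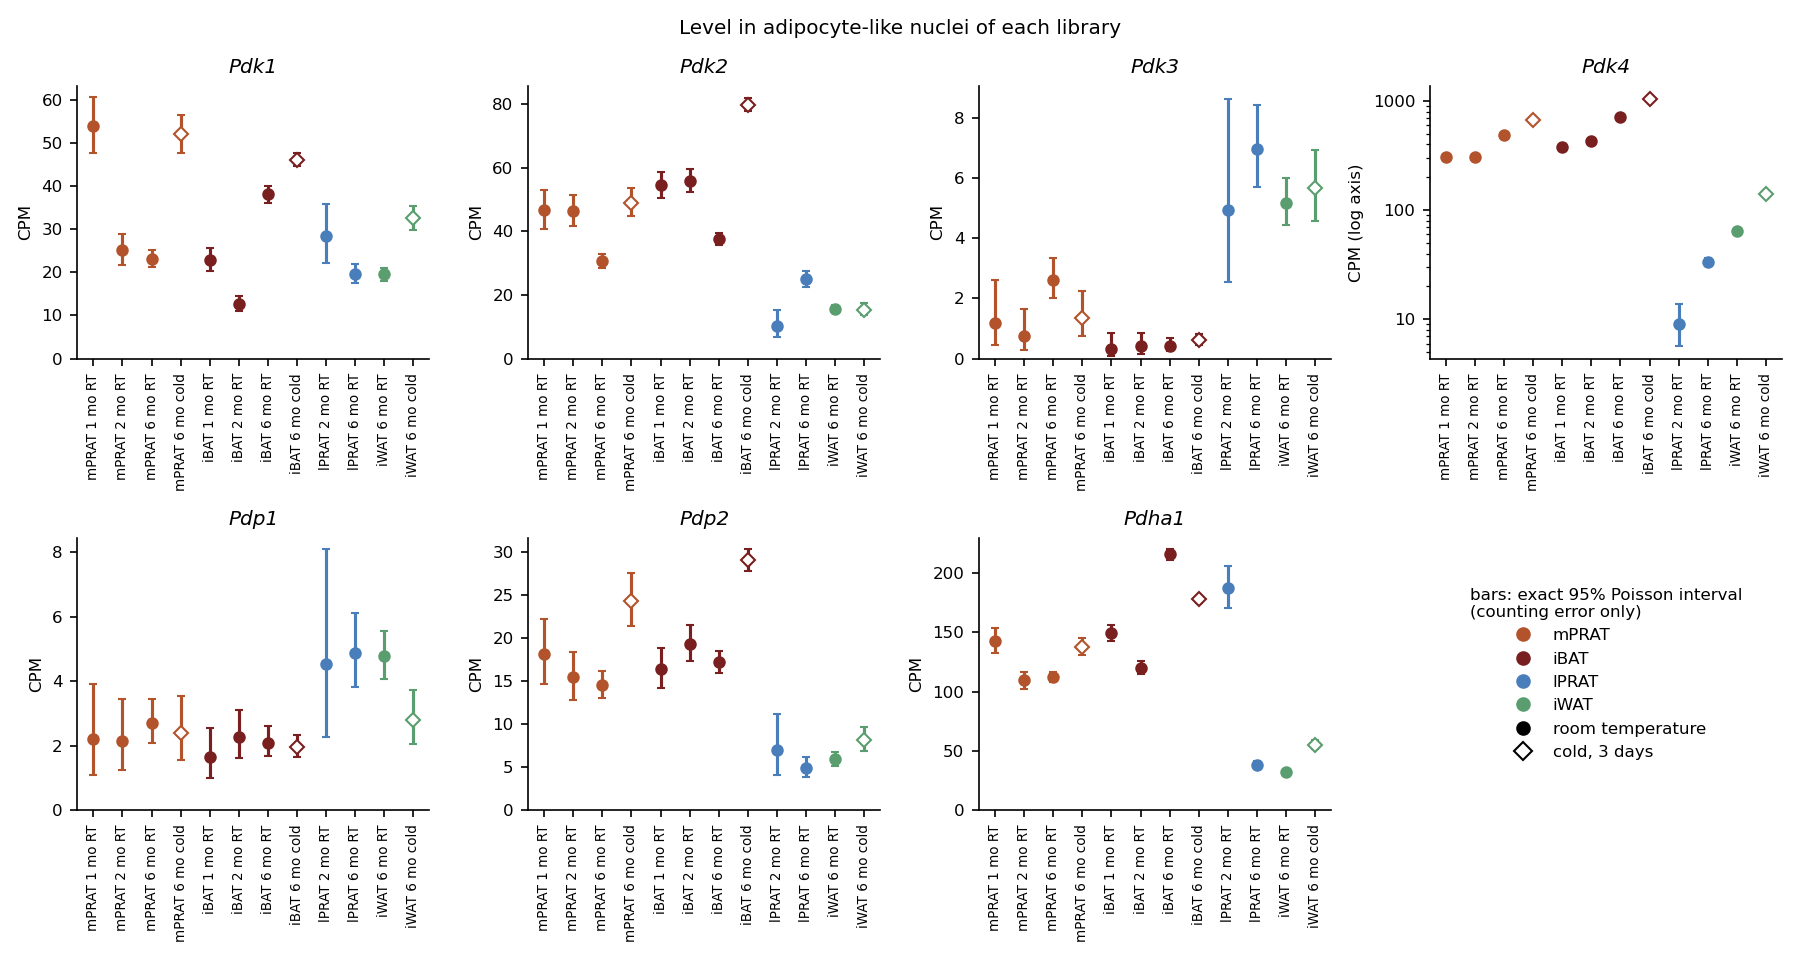
Level in CPM of each member in the adipocyte-like nuclei of the 12 libraries; points are libraries, bars are exact 95% Poisson intervals, open diamonds are cold, and the Pdk4 axis is logarithmic. Pdk4, Pdk2 and Pdp2 were lower in lPRAT and iWAT than in every mPRAT and iBAT library, whereas Pdk3 was highest in the 4 lPRAT and iWAT libraries.

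A member was counted as apart between 2 libraries when its levels differed at least 2-fold, with 1 CPM added to both, and when the libraries together held at least 20 of its UMIs. By that rule 3 of 7 members were higher in mPRAT than in iWAT at 6 months, where 7.52% of all genes tested were higher, and 4 were higher and 1 lower in iBAT than in iWAT, where 12.3% and 11.4% of genes were. Against lPRAT, mPRAT had 3 of 6 counted members higher at 2 months (11.6% of all genes) and 3 higher and 1 lower of 7 at 6 months (6.91% and 7.17%). In cold, 4 members were higher and 1 lower both in mPRAT than in iWAT (19.7% and 7.26% of all genes) and in iBAT than in iWAT (18.4% and 12.5%). Without the cluster led by uroplakin genes 2 members were apart between mPRAT and iWAT in cold, Pdk2 at log2 1.23 and Pdk3 at -1.43, and Pdk4 was at 0.76. In that setting 14.1% of all genes were higher and 4.64% lower. No member was apart between lPRAT and iWAT at 6 months (9.96% of all genes in either direction), where Pdk4 stood at 0.521 times the iWAT level. Comparisons that share a library are not independent of each other. Scaling with TMM factors moved the median of all genes by -0.31 to 0.22 on the log2 scale over the 21 comparisons, and adding 10 CPM instead of 1 took the low genes Pdk3 and Pdp2 under 2-fold in several.

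Pdk4 also held a larger share of the kinase UMIs in every mPRAT and iBAT library than in any lPRAT or iWAT library when all adipocyte-like nuclei were kept. Pdk4 supplied 75.2%, 80.9% and 89.6% of Pdk1 to Pdk4 UMIs in mPRAT at 1, 2 and 6 months and 86.6% in cold, and 82.9%, 86.2%, 90.4% and 89.2% in the same order in iBAT. In lPRAT its share was 17.2% (exact binomial 95% interval 11.1 to 24.9, from 128 UMIs) at 2 months and 39.4% at 6 months. In iWAT it was 61.5% at room temperature and 72.4% in cold. In cold mPRAT it was 70.3% (67.9 to 72.5) with the uroplakin-led cluster left out, below that of cold iWAT. Pdk1 supplied most of the rest in lPRAT at 2 months, with 53.9% (44.9 to 62.8), and Pdk2 supplied 29.3% in lPRAT at 6 months. Longer genes can collect more UMIs from nuclear RNA, so the shares were also computed per kilobase of gene: Pdk4 then held 29.4% and 51.9% in lPRAT, 74.0% and 83.4% in iWAT, and at least 83.0% in every mPRAT and iBAT library, so that iWAT in cold overlapped the lowest of these, mPRAT at 1 month. With the uroplakin-led cluster left out, cold mPRAT held 80.3% per kilobase.

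**Figure D2:**
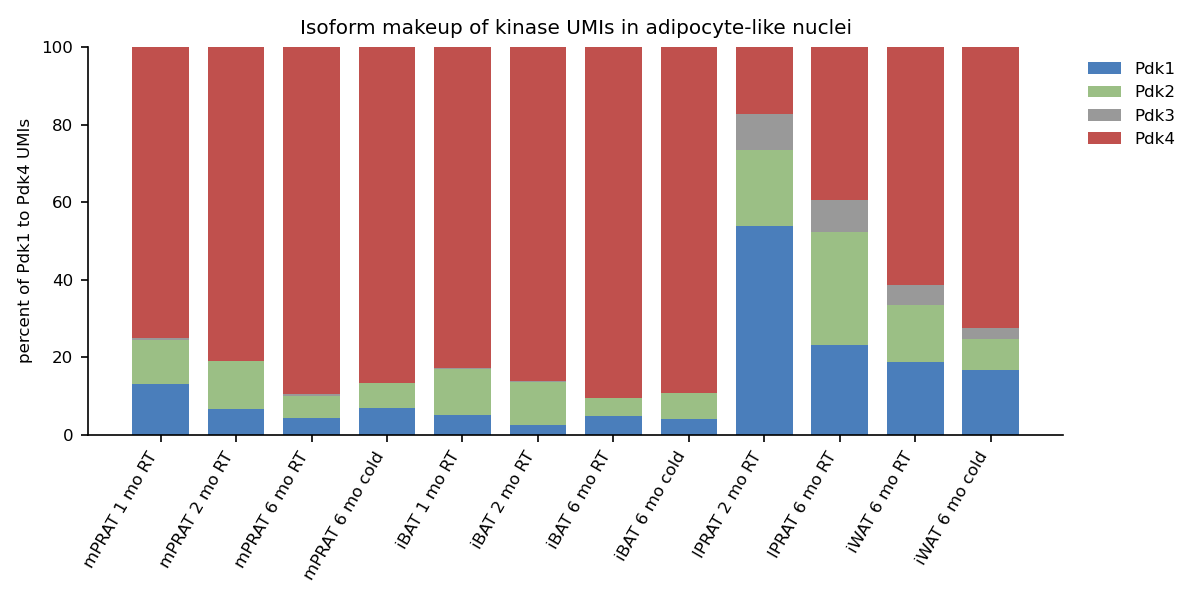
Share of Pdk1, Pdk2, Pdk3 and Pdk4 in the summed kinase UMIs of adipocyte-like nuclei, in percent, with 1 bar per library. Pdk4 fills 75.2% to 90.4% of the mPRAT and iBAT bars and 17.2% to 72.4% of the lPRAT and iWAT bars.

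Per kilobase of gene span, the members of iBAT at 6 months ranked Pdk4 at 55.5 CPM, Pdha1 at 13.3, Pdk2 at 2.48, Pdp2 at 2.27, Pdk1 at 1.24, Pdp1 at 0.253 and Pdk3 at 0.00634. Kinase UMIs outnumbered phosphatase UMIs in every library. The ratio was 20.2, 21.5, 31.4 and 28.6 in mPRAT and 25.2, 23.2, 41.2 and 37.8 in iBAT, in the order 1, 2 and 6 months and cold. It was 4.57 (3.02 to 7.15) and 8.67 in lPRAT and 9.78 and 17.7 in iWAT. In cold mPRAT it was 21.3 (16.9 to 27.3) with the uroplakin-led cluster left out. The 4 lPRAT and iWAT ratios were all below the 8 others. The interval of iWAT in cold, 15.2 to 20.7, overlapped those of mPRAT at 1 month (16.5 to 24.9) and 2 months (18.1 to 25.7). The ratio is of UMIs, not of protein or activity.

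Pdk4 was higher in cold in all 3 depots when all adipocyte-like nuclei were summed. The ratio of cold to room temperature was 1.37 (1.33 to 1.41) in mPRAT, 1.46 (1.44 to 1.48) in iBAT and 2.19 (2.07 to 2.33) in iWAT. Pdk4 in iWAT was the 1 of 7 members at least 2-fold higher there (2.57% of all genes), Pdk2 the 1 in iBAT (5.63%) and Pdk1 the 1 in mPRAT (8.04%). These single calls were just past the 2-fold line, at log2 1.12, 1.07 and 1.14 in that order, so no pattern of isoforms by depot is read from them. Pdk1 and Pdk4 were higher in cold in all 3 depots. The Pdk1 call fell short of 2-fold with the per-nucleus marker gate, the mean of single-nucleus CPM and 10 CPM added. With 10 CPM added the Pdk2 call did too. Whether the depots differ in this was not tested.

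Within clusters and Ucp1 gates the Pdk4 differences were smaller in iWAT and pointed the other way in mPRAT, while in iBAT 1 of 2 shared clusters had a larger one. In iWAT, 2 clusters held most adipocyte-like nuclei. In the one with higher Pdk4 the level was 148 CPM in cold and 140 at room temperature (ratio 1.06, 0.979 to 1.15), and in the other, marked by Nnat and Mest, it was 44.3 and 41.3 CPM (ratio 1.07, 0.939 to 1.22). Their proportions differed: the higher cluster held 64.4% of adipocyte-like nuclei in cold against 32.5% at room temperature, and the lower one 795 of 2651 nuclei against 2776 of 4120. A further 97 nuclei of iWAT in cold, 3.66% of them, fell in a brown cluster, where Pdk4 was at 1259 CPM (1143 to 1382) and Ucp1 at 674 CPM. Neither of the 2 clusters shared by both iWAT libraries had an interval that excluded 1. Clusters are set by expression, so the mix of clusters is itself a measure of expression.

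In mPRAT the Pdk4 level among nuclei with at least 1 Ucp1 UMI was 972 CPM in cold and 1180 CPM at room temperature. Among nuclei with none it was 182 and 210 CPM. Both gated log2 differences were below 0, at -0.28 and -0.21, while that over all adipocyte-like nuclei was 0.45. Ucp1-positive nuclei were 1308 of 2142 in cold and 1022 of 3307 at room temperature. Median depth was 4394.5 UMIs in cold and 6147 at room temperature, and this gate was not thinned. A gate side thus need not hold like nuclei in both libraries. In the cluster that both libraries shared, with little Ucp1, Pdk4 was 121 CPM in cold and 155 CPM at room temperature (ratio 0.777, 0.701 to 0.861). Without the cluster led by uroplakin genes the log2 difference over the remaining nuclei was -1.02, a direction that the removal of Ucp1-high, Pdk4-high nuclei from the cold side alone favours by construction. In that library 66.0% of barcodes were over the mitochondrial limit, and a marker gate applied with no such limit gave 822 CPM in cold and 680 CPM at room temperature (ratio 1.21, 1.16 to 1.26), with 0.820 among Ucp1-positive and 0.933 (0.837 to 1.04) among Ucp1-zero nuclei. Epithelial markers summed to 128 CPM in the cold adipocyte-like nuclei and to 6.52 CPM at room temperature, and their part in these values was not tested.

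In iBAT the difference stayed above 0 on both sides of the Ucp1 gate, with log2 values of 0.29 in positive and 0.22 in zero nuclei. The zero side held 198 of 9656 nuclei in cold and 8056 of 15283 at room temperature. Median depth was 6622 and 2153 UMIs and this gate was not thinned, so the zero sides need not hold like nuclei. Pdk4 also differed within iBAT clusters, at 323 against 172 CPM (ratio 1.88, 1.53 to 2.31) in the low-Ucp1 cluster and 1246 against 1007 CPM (ratio 1.24, 1.08 to 1.42) in a brown one. These clusters held 1.63% and 0.777% of the cold nuclei, because 97.2% of the adipocyte-like nuclei of iBAT in cold formed a cluster of their own. In iWAT nuclei with no Ucp1 UMI the log2 difference was 0.68, at 101 CPM in cold and 62.5 CPM at room temperature.

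**Figure D3:**
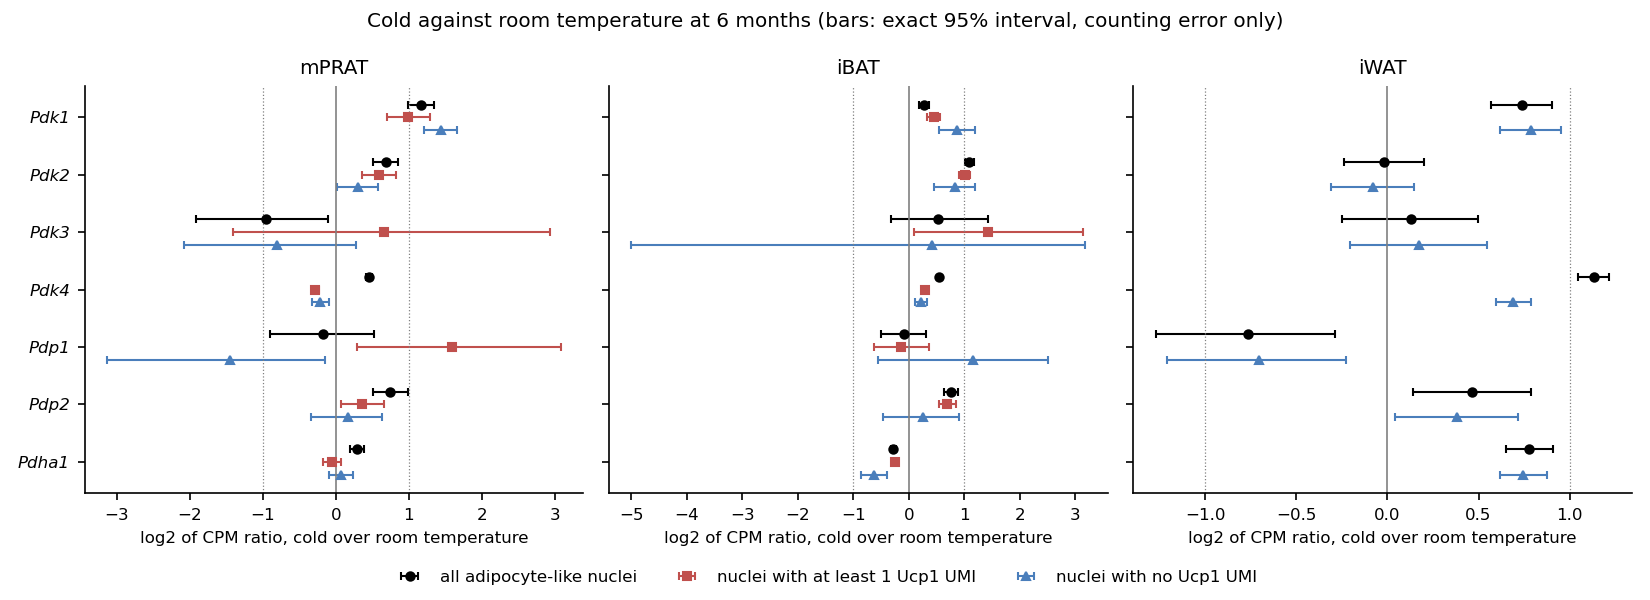
Log2 ratio of CPM, cold over room temperature at 6 months, for each member in mPRAT, iBAT and iWAT; black circles are all adipocyte-like nuclei, red squares those with at least 1 Ucp1 UMI and blue triangles those with none, bars are exact 95% intervals for counting error, and the horizontal scale differs between panels. In mPRAT the Pdk4 circle lies above 0 and both gated points lie below it.

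Pdk4 was at a higher level in nuclei with a Ucp1 UMI, by much in mPRAT and cold iWAT and by less in iBAT. Among mPRAT nuclei the Ucp1-positive level against the Ucp1-zero level was 546 against 272 CPM at 1 month, 621 against 218 at 2 months, 1180 against 210 at 6 months and 972 against 182 in cold. In iBAT the gap was narrower, at 393 against 365, 535 against 335 and 860 against 542 CPM at 1, 2 and 6 months and 1054 against 631 CPM in cold. In iWAT in cold it was 1040 CPM in 142 positive nuclei against 101 CPM in 2509 others. A Ucp1 UMI is more likely to be caught in a deeper nucleus, so the gate was repeated after thinning each nucleus to 1000 UMIs. The log2 gap was then 0.99, 1.51, 2.00 and 1.16 in mPRAT, 0.13, 0.58, 0.60 and 0.06 in iBAT, and 3.30 in iWAT in cold, in the same order. After thinning the 2 sides in cold iBAT were thus nearly level, at 1060 and 1016 CPM. Cyp2e1, a marker of white adipocyte-like nuclei here, went the other way: mPRAT nuclei of 6 months had 270 CPM of Pdk4 where Cyp2e1 was caught and 964 CPM where it was not, while in iWAT at room temperature both sides stood at 64.2 CPM.

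**Figure D4:**
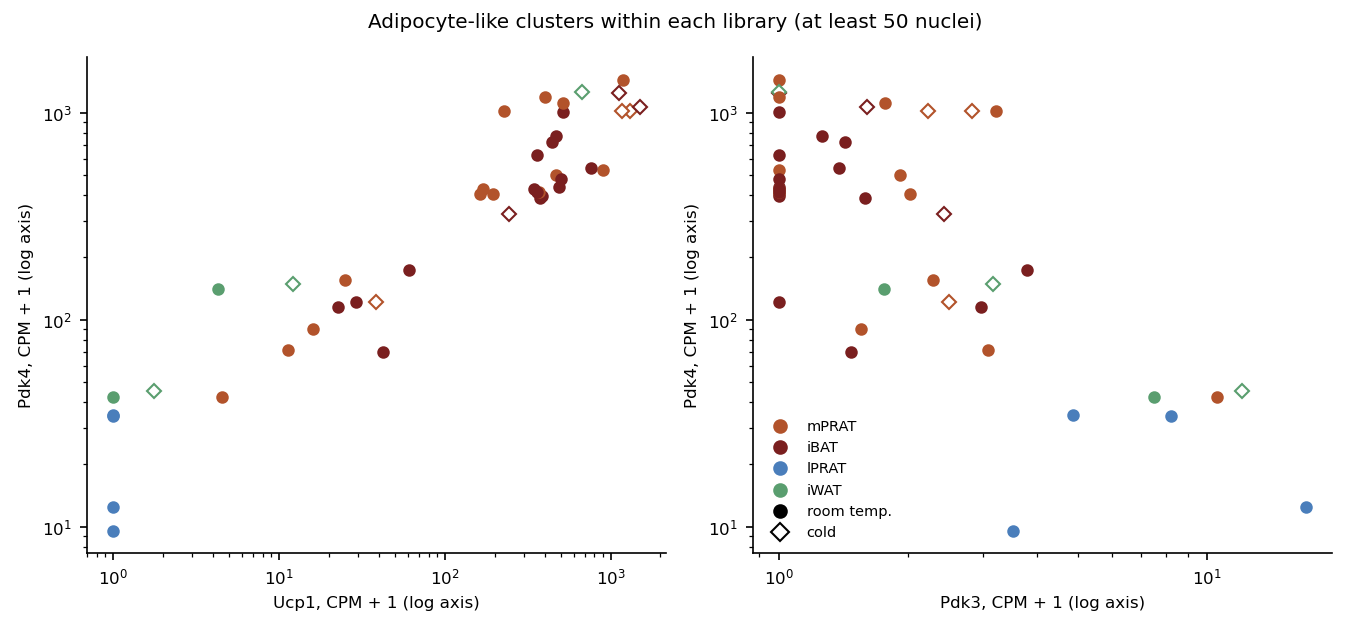
Pdk4 level against Ucp1 (left) and Pdk3 (right) in each adipocyte-like cluster of each library with at least 50 nuclei; both axes are CPM + 1 on log scales, filled circles are room temperature and open diamonds cold. The clusters with Pdk4 above 1000 CPM have Ucp1 at 226 CPM or more, and the 5 points with the highest Pdk3 have Pdk4 at 11.4 to 44.3 CPM.

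With age, Pdk4 was higher at 6 months than at 1 month in both depots sampled at both, by 1.57-fold in mPRAT and 1.92-fold in iBAT. No member but Pdk1 and Pdk3 was apart with age in these depots. Within the 4 mPRAT clusters present at both ages the Pdk4 ratio was larger than over all nuclei, at 2.21, 3.57, 2.50 and 2.77, with all 4 intervals above 1. The per-nucleus marker gate likewise put Pdk4 past 2-fold for 6 against 2 months in mPRAT (log2 1.12), against 0.66 for the summed clusters. In iBAT the 4 clusters gave 1.43, 2.56, 1.61 and 1.87. Clusters of a library are parts of it and so are no replicates. In lPRAT the level at 6 months was 3.70 times that at 2 months (2.41 to 5.95), and 3.93 and 2.92 times in the 2 clusters shared. The shallow lPRAT library of 2 months supplied 22 Pdk4 UMIs, and its adipocyte-like nuclei also held markers of adipose stem and progenitor cells (ASPC) at 402 CPM against 20.3 to 216 CPM in the others; the part of this was not tested.

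Pdk1 was at least 2-fold lower at 2 and 6 months than at 1 month in mPRAT, and at least 2-fold higher at 6 than at 2 months in iBAT. Its level in mPRAT was 54.0, 25.1 and 23.1 CPM at 1, 2 and 6 months, and in iBAT 22.9, 12.7 and 38.1 CPM. From 1 to 2 months the ratio was 0.466 (0.386 to 0.561) in mPRAT, where Pdk1 was the 1 of 6 counted members at least 2-fold lower (4.72% of all genes), and 0.554 in iBAT, where no member of 6 was apart (3.68% of all genes in either direction). From 2 to 6 months it was 3.00 (2.60 to 3.48) in iBAT, the 1 of 7 members higher (4.75%). From 1 to 6 months it was 0.428 in mPRAT, again the 1 member lower (8.26%), and 1.66 in iBAT, where none was apart (10.5% in either direction). With TMM factors the mPRAT differences from 1 month came to -0.84 at 2 months and -0.95 at 6 months on the log2 scale, both short of 2-fold. Kidney tubule markers summed to 71.7 and 72.7 CPM in mPRAT adipocyte-like nuclei of 1 and 2 months and to 2.65 CPM at 6 months, and Pdk1 in the kidney tubule-like class itself was 4.97 and 19.8 CPM. Epithelial markers stood at 32.3, 64.7 and 6.52 CPM and endothelial markers at 29.3, 15.9 and 15.3 CPM at 1, 2 and 6 months, and Pdk1 in those classes of the same libraries was 43.5 to 80.3 and 33.9 to 58.9 CPM. The part of these classes was not tested.

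The age differences of Pdk1 were also read inside clusters, which are parts of the same libraries and so are no replicates. Median depth of adipocyte-like nuclei in mPRAT was 1722 UMIs at 1 month and 6147 at 6 months. In iBAT it was 1454.5 UMIs at 2 months and 2153 at 6 months, and the part of depth was not tested. In mPRAT the 6-month over 1-month ratio was 0.466, 0.313, 0.431 and 0.332 in the 4 clusters present at both ages. In iBAT the 6-month over 2-month ratio was 3.23, 5.96, 3.87 and 4.28 in 4 brown clusters and 0.979 (0.583 to 1.59) in the low-Ucp1 cluster. At 1 month Pdk1 was 2.36 times as high in mPRAT as in iBAT (1.99 to 2.79), the 1 member of 6 higher there (7.64% of all genes). It was 1.98 times as high at 2 months, where none of 6 was apart (10.3% in either direction), and 0.607 times at 6 months.

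Cold went with higher Pdk1 in each depot, at 52.0 against 23.1 CPM in mPRAT (ratio 2.25, 1.99 to 2.54), 46.2 against 38.1 in iBAT (1.21) and 32.6 against 19.5 in iWAT (1.67). In mPRAT it was higher on both sides of the Ucp1 gate, by log2 0.96 and 1.40, and in the shared low-Ucp1 cluster, at 65.6 against 24.4 CPM (ratio 2.69, 2.26 to 3.20). Without the cluster led by uroplakin genes the log2 difference was 1.38. Epithelial markers in these nuclei were at 128 CPM in cold and 6.52 CPM at room temperature, and the epithelial-like class held 48.1 and 43.5 CPM of Pdk1; their part in the difference was not tested. The per-nucleus marker gate gave 0.90, or 0.87 with no mitochondrial limit, both short of 2-fold. In iWAT both shared clusters had more Pdk1 in cold, by 1.41 and 1.60 times. Pdk1 was at a lower level where Ucp1 was caught, at 30.3 against 57.6 CPM in mPRAT at 1 month, 44.8 against 63.3 CPM in mPRAT in cold and 8.59 against 33.6 CPM in iWAT in cold. The gap was small in mPRAT at 6 months, at 22.5 against 23.4 CPM. After thinning, the log2 gap was -0.83, -0.94, -0.26 and -0.39 in mPRAT and -0.58, -0.66, -0.29 and -0.06 in iBAT, at 1, 2 and 6 months and in cold, and -2.20 in iWAT in cold.

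Pdk2 was higher in mPRAT and iBAT than in lPRAT and iWAT, and higher in cold in iBAT. Its level was 46.6, 46.3 and 30.5 CPM in mPRAT and 54.4, 55.8 and 37.5 CPM in iBAT at 1, 2 and 6 months, against 10.3 and 24.9 CPM in lPRAT and 15.5 CPM in iWAT. The level at 6 months was thus below that at 2 months in both mPRAT and iBAT, at 0.660 and 0.672 times, and above it in lPRAT, at 2.42 times (1.62 to 3.79). In cold it stood at 79.7 CPM in iBAT, a ratio of 2.13 (2.01 to 2.25). The log2 difference was 0.98 on the positive side of the Ucp1 gate and 0.81 on the zero side, which held 198 nuclei in cold. In mPRAT Pdk2 stood at 49.0 CPM in cold (ratio 1.60), and at a log2 difference of 0.27 without the cluster led by uroplakin genes. In iWAT it was 15.4 CPM in cold and 15.5 CPM at room temperature, with a ratio of 0.988 and an interval of 0.847 to 1.15 for counting error. In cold Pdk2 was 5.19 times as high in iBAT as in iWAT.

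Between depots Pdk3 was high where Pdk4 was low, which did not hold with age in mPRAT, where both were higher at 6 than at 2 months. Its level was 4.94 and 6.98 CPM in lPRAT and 5.18 and 5.67 CPM in iWAT, 0.758 to 2.61 CPM in mPRAT and 0.329 to 0.615 CPM in iBAT. All 4 lPRAT and iWAT libraries were above all 8 others, although the interval of lPRAT at 2 months, 2.55 to 8.64 CPM, reached down to the highest mPRAT value. Markers of ASPC in the adipocyte-like nuclei stood at 132 to 402 CPM in lPRAT and iWAT against 20.3 to 183 CPM in mPRAT and iBAT, and those of macrophages at 100.1 to 206 against 12.3 to 112 CPM. These classes held medians of 13.2 and 14.1 CPM of Pdk3, and their part in the difference was not tested. At 6 months the iBAT level was 0.0827 times that of iWAT (0.0471 to 0.136) and the mPRAT level 0.374 times that of lPRAT (0.269 to 0.516). Pdk3 was the 1 member apart between mPRAT and iBAT at 6 months, 6.08 times higher in mPRAT (3.51 to 11.1, with 7.6% of all genes higher). That call was lost with the mean of single-nucleus CPM, 10 CPM added, a minimum of 100 counts and the per-nucleus marker gate. In cold no member was apart between mPRAT and iBAT (11.8% in either direction). With the cluster led by uroplakin genes left out, the mostly Ucp1-low remainder of cold mPRAT had 3 members lower than cold iBAT, Pdk4 at log2 -2.14, Pdk2 at -1.08 and Pdp2 at -1.01. In that setting 8.97% of all genes were lower and 12.9% higher. Pdk3 was also the 1 member apart in mPRAT from 2 to 6 months, at 3.44 times (1.49 to 9.73; 5.62% of all genes higher), from only 6 UMIs at 2 months. Both of these calls rest on mPRAT at 6 months, where B cell markers summed to 42.3 CPM in the adipocyte-like nuclei, against 2.78 CPM in mPRAT at 2 months and 2.37 CPM in iBAT at 6 months. B cell-like nuclei were 30.9% of that library and held 24.8 CPM of Pdk3, and their part in these values was not tested.

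An adipocyte-like cluster with at least 50 nuclei in 6 libraries had the highest Pdk3 of all such clusters in 5 of them. In the cluster marked by Nnat and Mest it was 6.52 CPM against 0.756 CPM in the other large iWAT cluster at room temperature, and 11.03 against 2.16 CPM in cold. In mPRAT at 6 months the same pair of clusters stood at 9.55 and 1.29 CPM, in lPRAT of that age at 7.21 and 3.85 CPM, and in lPRAT at 2 months at 16.0 and 2.52 CPM. In iBAT at 6 months the order was the other way, at 1.97 and 2.80 CPM, from 1 and 2 UMIs. The other libraries had under 50 nuclei of this cluster. The same cluster had the lower Pdk4 in mPRAT, at 41.3 against 155 CPM. The clustering did not use the members, but it used genes that vary with them, so these values describe the clusters and are no test.

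Of the phosphatases, Pdp2 was lower in lPRAT and iWAT than in every mPRAT and iBAT library, and Pdp1 was higher in lPRAT and iWAT, at low levels. Pdp2 was 18.1, 15.4 and 14.5 CPM in mPRAT and 16.3, 19.3 and 17.2 CPM in iBAT at 1, 2 and 6 months, and 24.3 and 29.1 CPM in cold. It was 7.00 and 4.94 CPM in lPRAT, 5.91 CPM in iWAT and 8.17 CPM in iWAT in cold, below all 8 mPRAT and iBAT libraries. Pdp1 was 1.64 to 2.69 CPM in mPRAT and iBAT, and 4.53, 4.87, 4.77 and 2.80 CPM in lPRAT at 2 and 6 months, iWAT and iWAT in cold. With 1 CPM added no depot comparison put Pdp1 2-fold apart, although the plain ratio of iBAT to iWAT at 6 months was 0.439 (0.333 to 0.575) and that of mPRAT to lPRAT at 2 months 0.474 (0.209 to 1.12). Of the depot comparisons 4 of 11 had an interval that excluded 1, and the interval of iWAT in cold, 2.05 to 3.74 CPM, overlapped that of mPRAT at 6 months. Mesothelial markers stood at 86.9 and 17.2 CPM in the lPRAT adipocyte-like nuclei, 1.76 and 1.83 CPM in iWAT and 1.87 to 54.1 CPM in mPRAT and iBAT. Mesothelial-like and ASPC-like nuclei held medians of 33.7 and 10.3 CPM of Pdp1, and the part of these classes, ASPC markers included, was not tested. Pdp1 supplied 6.32% to 15.6% of phosphatase UMIs in mPRAT and iBAT, and 39.3%, 49.7%, 44.7% and 25.6% in the lPRAT and iWAT libraries in that order. These Pdp1 levels rest on 11 to 163 UMIs.

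Over all adipocyte-like nuclei Pdp2 was higher in cold in the 3 depots. Its ratio of cold to room temperature was 1.68 (1.42 to 1.98) in mPRAT, 1.69 (1.55 to 1.85) in iBAT and 1.38 in iWAT, all short of 2-fold. Without the cluster led by uroplakin genes the mPRAT log2 difference was -0.06. Pdp2 was at a higher level where Ucp1 was caught in mPRAT, at 25.3 against 10.3 CPM at 6 months and 32.6 against 11.5 CPM in cold, and nearly level in iBAT at 6 months, at 18.1 against 16.1 CPM. After thinning the log2 gap was 1.11, 0.85, 1.10 and 0.84 in mPRAT and 0.41, 0.24, 0.18 and -0.04 in iBAT, at 1, 2 and 6 months and in cold, and 0.92 in iWAT in cold. The 4 iBAT intervals and that of iWAT, from 5 UMIs in positive nuclei, included 0. Pdp1 in iWAT was lower in cold, at 0.588 times (0.414 to 0.820), and in mPRAT its ratio of 0.890 had an interval that included 1. By Ucp1 gate in mPRAT, Pdp1 was 3.15 against 1.04 CPM in positive nuclei and 1.22 against 3.34 CPM in zero nuclei, cold against room temperature, from 20, 7, 5 and 57 UMIs, with both intervals leaving out equal levels in opposite directions. The marker gate with no mitochondrial limit gave ratios of 4.28 (0.953 to 39.4) in positive and 0.193 (0.0046 to 1.25) in zero nuclei. Both of those intervals included 1.

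Pdha1, the substrate subunit, was 143, 109 and 113 CPM in mPRAT and 150, 120 and 216 CPM in iBAT at 1, 2 and 6 months, with 138 and 178 CPM in cold. In iWAT it was 32.2 CPM at room temperature and 55.3 CPM in cold, a ratio of 1.72. At 6 months it was 3.49 times as high in mPRAT and 6.70 times as high in iBAT (6.29 to 7.14) as in iWAT. Both shared iWAT clusters had more Pdha1 in cold, at 60.9 against 35.8 CPM and 43.2 against 31.2 CPM. In mPRAT the cold ratio of 1.23 over all nuclei came to log2 values of -0.05 and 0.08 inside the Ucp1 gates, and in iBAT the ratio was 0.824. From 2 to 6 months in iBAT the ratio was 1.80, with values of 1.38 to 2.35 in its 5 shared clusters.

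In lPRAT, Pdha1 was 188 CPM at 2 months and 38.2 CPM at 6 months, a ratio of 0.203 (0.179 to 0.230). Together with Pdk2 and Pdk4 it made 2 members higher and 1 lower in that comparison, in which 12.2% and 9.14% of all genes were. The 2-month level stood apart from lPRAT at 6 months and both iWAT libraries, which were at 32.2 to 55.3 CPM. It was not limited to adipocyte-like nuclei: from 2 to 6 months Pdha1 went from 116 to 35.6 CPM in ASPC-like, 136 to 21.4 CPM in macrophage-like, 176 to 28.8 CPM in dendritic-like and 164 to 54.0 CPM in mesothelial-like nuclei. This library had the lowest depth, a median of 874 UMIs per nucleus, and its part in the level was not tested.

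Free RNA in droplet libraries can place a transcript in nuclei that do not make it, so shares of nuclei with a Pdk4 UMI were compared after thinning to 1000 UMIs. The thinned share of adipocyte-like nuclei was 23.4%, 23.9%, 30.4% and 40.4% in mPRAT and 30.5%, 33.7%, 44.6% and 61.4% in iBAT, at 1, 2 and 6 months and in cold, against 33.0% to 96.8% unthinned. It was 0.939% and 3.21% in lPRAT and 6.53% and 11.5% in iWAT. Lymphocyte-like nuclei, thinned alike, had 3.64% in mPRAT and 1.30% in iWAT at 6 months, and 21.4% of 42 nuclei in iBAT at 6 months. Of 51 such nuclei from 6-month lPRAT, 0 had a Pdk4 UMI, which allows a share of up to 5.88%, above the 3.21% of adipocyte-like nuclei. In iWAT in cold 2.08% of 48 had one.

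Pdk1, Pdk3 and Pdp1 were at higher levels in several other cell classes than in adipocyte-like nuclei. Pdk1 had its highest median in T or NK cell-like nuclei, at 52.0 to 153 CPM over 6 libraries, and was above the adipocyte-like level of the same library in 3 of them. Endothelial-like nuclei, at 33.4 to 99.9 CPM over 11, were above it in 7. Pdk3 was above the adipocyte-like level in ASPC-like nuclei in 11 of 12 libraries (1.23 to 29.3 CPM), in dendritic-like nuclei in 7 of 8 (11.5 to 64.8 CPM), and in all 4 libraries with epithelial-like and all 5 with mesothelial-like nuclei. Pdp1 was highest in adrenal cortex-like nuclei, at 42.5 and 54.7 CPM in 2 mPRAT libraries, and in mesothelial-like nuclei, at 19.9 to 37.5 CPM. ASPC-like nuclei had 4.44 to 27.2 CPM of Pdp1 and were above the adipocyte-like level in 7 of 12 libraries. "Above" here means that the whole 95% Poisson interval of the class lay above the adipocyte-like level of that library.

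Pdk4 and Pdha1 had lower medians in the other large classes than in adipocyte-like nuclei, and Pdk2 and Pdp2 were not limited to adipocyte-like nuclei. Pdk4 had a median of 342 CPM in adipocyte-like nuclei over 12 libraries, and of 44.4 CPM in ASPC-like, 59.3 CPM in endothelial-like and 28.3 CPM in macrophage-like nuclei. Much of that could not be told from adipocyte RNA: scaled by the adipocyte markers found in the same nuclei, Pdk4 was above the level so computed in 6 of 12 libraries for ASPC-like, 1 of 11 for endothelial-like and 2 of 11 for macrophage-like nuclei. Pdk2 reached 37.6 and 53.3 CPM and Pdp2 15.8 and 27.7 CPM in kidney tubule-like nuclei of 2 libraries, against adipocyte-like medians of 41.9 and 15.9 CPM. Pdha1 had its highest median in adipocyte-like nuclei, with a value of 129 CPM against 33.0 to 45.3 CPM in ASPC-like, endothelial-like and macrophage-like nuclei.

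**Figure D5:**
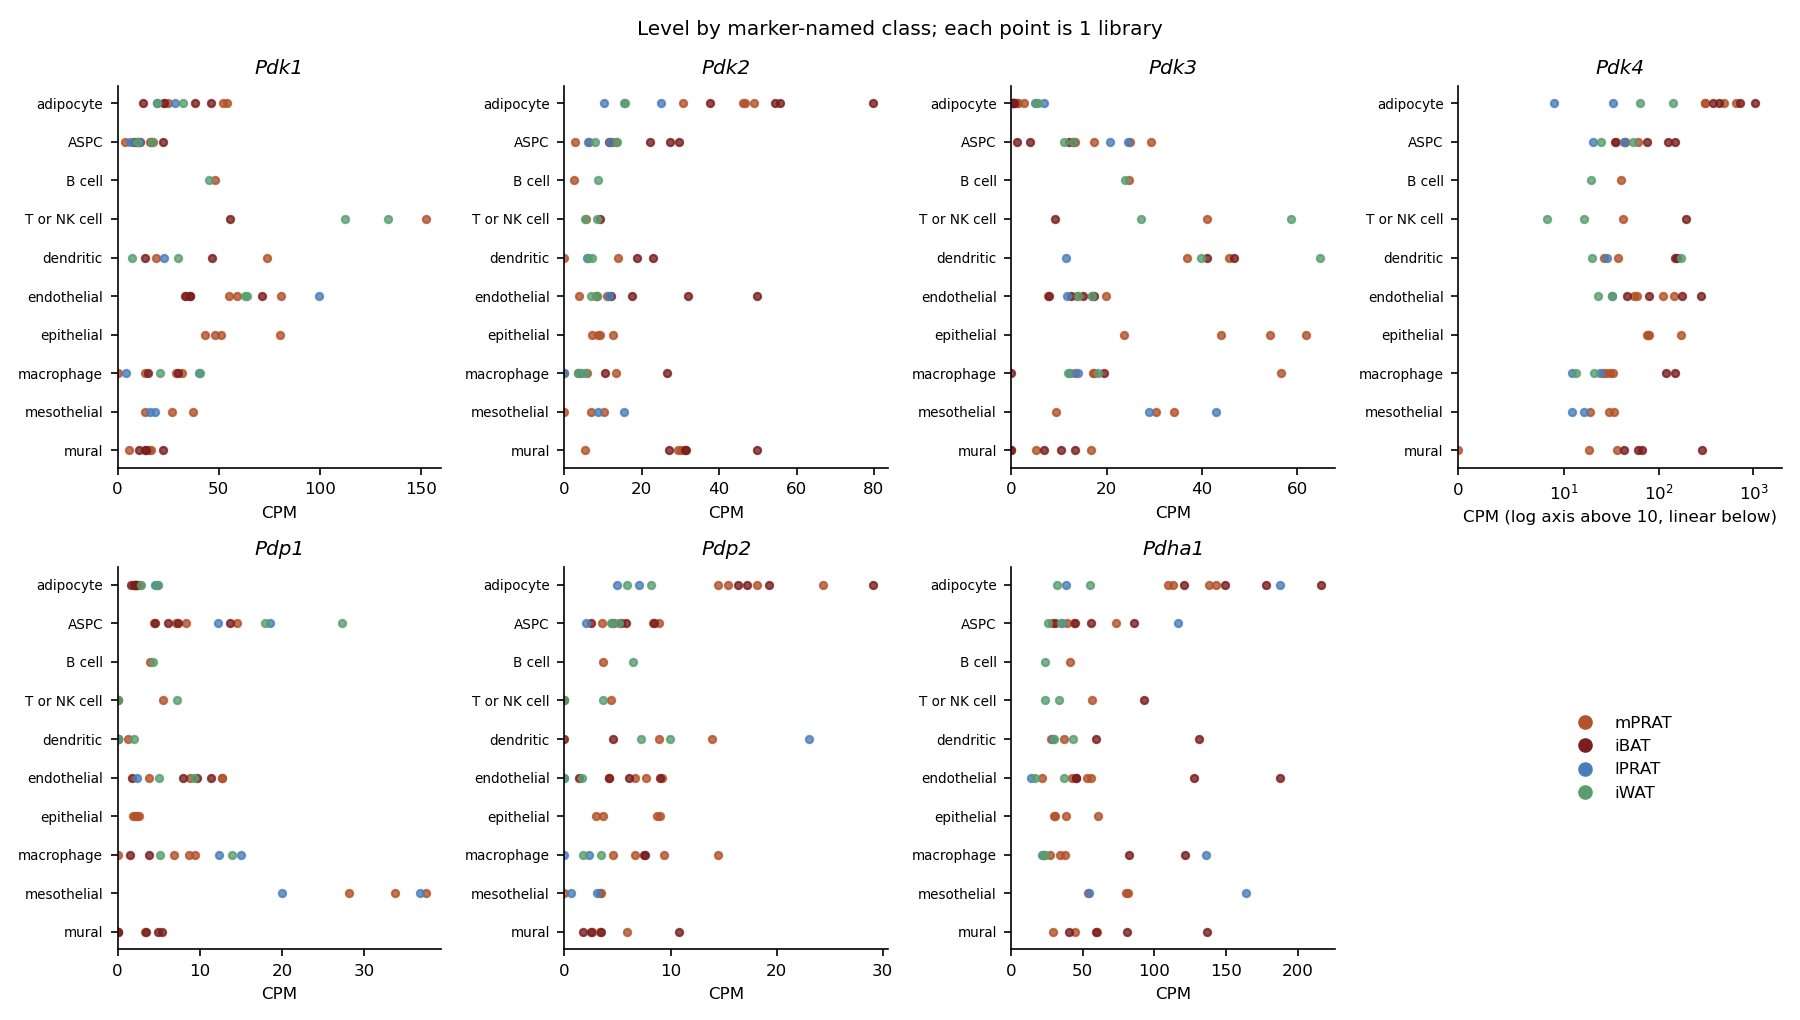
Level in CPM of each member by marker-named class; each point is 1 library, shown where the class held at least 100000 UMIs, and the Pdk4 axis is logarithmic above 10. Pdk1 points of T or NK cell-like and endothelial-like nuclei and Pdk3 and Pdp1 points of mesothelial-like nuclei lie above most adipocyte points, whereas Pdk4 and Pdha1 have their highest medians over libraries in adipocyte-like nuclei, with Pdk4 of ASPC-like and Pdha1 of mesothelial-like nuclei above them in 1 library each.

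Some differences in cold outside adipocyte-like nuclei had intervals that excluded 1, mostly for Pdk4 and Pdk1. In ASPC-like nuclei Pdk4 was 1.71 times as high in mPRAT (1.13 to 2.55) and 2.17 times in iWAT (1.60 to 2.96), and Pdk1 was 2.71 times as high in iBAT (1.38 to 5.83). Endothelial-like nuclei of iBAT had 1.98 times the Pdk1 and 1.59 times the Pdk4. In cold mPRAT, dendritic-like nuclei had 3.88 times the Pdk1 (1.80 to 8.44), from 74.0 against 19.0 CPM, while in iBAT and iWAT the ratio in that class was 0.292 and 0.240 with intervals that included 1. Free adipocyte RNA differs between these libraries too, and its part was not tested.

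The rest of the pyruvate pathway was read from gene lists in the same adipocyte-like sums. In iBAT against iWAT at 6 months 4 of 5 pyruvate dehydrogenase complex genes, a list that includes Pdha1, were at least 2-fold higher, with Pdhb at log2 2.44 and Dlat, the E2 subunit, at 2.14. In the same comparison 14 of 19 glycolysis genes were higher (median 2.03), among them Pkm at 3.83 and Aldoa at 3.42. All 7 genes of citrate and acetyl-CoA export were higher (median 2.59), led by Acly, ATP-citrate lyase, at 4.82. That list, called citrate genes below for short, also holds the acetyl-CoA genes Acss1, Acss2 and Acaca. Sirt3, a mitochondrial deacetylase, was at 2.39, and 7 of 13 transcription factors known to act on Pdk genes were higher, with Esrrg at 5.05 and Ppara at 4.50. Of all genes tested 12.3% were higher, and their median was 0.07. The higher Pdk4 transcript level of iBAT stood beside higher transcript levels of most listed genes of the complex, of glycolysis and of citrate and acetyl-CoA export. Enzyme levels and activity were not measured. In mPRAT against lPRAT at 6 months 2 of 5 complex genes, 5 of 19 glycolysis genes and 6 of 7 citrate genes were higher, with list medians of 0.89, 0.60 and 2.03 against 0.01 over all genes, of which 6.91% were higher.

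In cold the lists were counted in each depot beside the share of all genes that was at least 2-fold higher, 8.04% in mPRAT, 5.63% in iBAT and 2.57% in iWAT. Correspondingly 7.18%, 8.82% and 5.74% of all genes were lower. In mPRAT 2 of 5 complex genes passed 2-fold (Pdhb 1.28, Dlat 1.08, median of the list 0.77), with 8 of 19 glycolysis genes (Gapdh 2.40, Pkm 1.72) and 3 of 7 citrate genes (Acly 1.69), against a median of -0.03 over all genes. Leaving out the cluster led by uroplakin genes, the counts were 1 of 5, 2 of 19 and 3 of 7, with 1 citrate gene lower and list medians of 0.27, 0.26 and 0.25, where 5.36% of all genes were higher and 6.55% lower. In iBAT 0 of 5 complex genes passed it (median 0.34), with 4 of 19 glycolysis genes (Gapdh 1.79, Hk1 1.35) and 1 of 7 citrate genes (Cs 1.06), against -0.09 over all genes. In iWAT 2 of 5 complex genes (Dlat, the larger, at 1.40) and 1 of 19 glycolysis genes passed it, against -0.18. So did 5 of 7 genes of the citrate and acetyl-CoA list (Acly 3.29, Acss2 2.71). Me1, malic enzyme, was at 1.24, 1.50 and 3.00 in mPRAT, iBAT and iWAT over all adipocyte-like nuclei. Whether the depots differ in these lists was not tested.

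The factors and fatty acid genes often studied beside Pdk4 did not move as 1 group. In cold, 2 of 13 factors were higher and 0 lower in mPRAT, 2 higher and 2 lower in iBAT, and 5 higher and 1 lower in iWAT. Esrrb, an estrogen-related receptor, was higher in mPRAT and iBAT (2.24 and 2.70) and Esrrg in iWAT (2.33). Ppargc1a was higher in mPRAT (1.23), whereas in iBAT Nr4a1 (-2.19) and Ppara (-1.09) were lower, and in iWAT Ppara was higher (1.20). Of 15 fatty acid genes of the PPAR program, 4 were higher and 1 lower in mPRAT, 5 higher and 1 lower in iBAT, and 3 higher and 2 lower in iWAT, beside the shares of all genes given above. In the sums that leave out the cluster led by uroplakin genes, 0 of the 13 factors were higher and 3 lower in cold mPRAT, and 0 of these 15 genes were higher and 1 lower, beside 5.36% and 6.55% of all genes. Over all adipocyte-like nuclei, Cpt1b, the muscle-type carnitine palmitoyltransferase, was at 3.23 in iWAT, Cpt1a was at 2.03 in iBAT, and Angptl4 was at -1.06 in mPRAT. From 1 to 6 months in mPRAT Ppara was lower (-1.54), Ppargc1a higher (1.61) and Bckdha and Ppm1k, of branched-chain keto acid breakdown, lower (-1.04 and -1.30). Of all genes 8.26% were lower. Bckdhb and Dbt, of the same breakdown, did not go lower, at 728 and 1121 CPM and at 58.6 and 59.2 CPM. TMM factors shifted this comparison by 0.21, more than the margin by which Bckdha passed 2-fold.

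Across the 12 libraries Pdk4, Pdk2 and Pdp2 varied together, as did Pdk3 and Pdp1. On the log2(CPM + 1) scale Pdk4 and Pdp2 had a Pearson r of 0.89, Pdk2 and Pdp2 0.87, and Pdk2 and Pdk4 0.85. Pdk3 and Pdp1 had 0.89, while Pdk2 and Pdk3 had -0.86 and Pdk4 and Pdp1 -0.87. Pdk1 had -0.34 to 0.45 with the others, and Pdha1 0.44 to 0.73 with Pdk4, Pdk2 and Pdp2. Among 8365 genes with at least 20 CPM in a library, those most like Pdk4 were Mrpl3 (r 0.99), Mrps35 (0.99), both mitochondrial ribosomal proteins, and Stx18 (0.98). Those most like Pdk2 were Ctr9 (0.98), Crat (0.97), carnitine acetyltransferase, and Gm43813 (0.97). Pdp2 was most like Gys1, glycogen synthase (0.99), Ogdh (0.98) and Pim1 (0.98), Pdk3 was close to App (0.98) and Mid2 (0.97), and Pdp1 was most like Ccdc152, Gm4924 and Rcn2 (0.95 each). Pdha1 was most like Bhlhe40 (0.95), Ptms (0.94) and Taldo1 (0.93), and Pdk1 reached only 0.85 with Rnf14, 0.84 with Chd2 and 0.83 with Manea. The 12 points share depots and differ in depth, so these values describe the libraries and carry no p.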

How the data were processed

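The authors deposited raw UMI counts per gene and nucleus barcode, made with Cell Ranger 7.0.0 on mm10, per the submitters' processing notes. Barcodes with at least 500 UMIs, 300 genes and at most 10% mitochondrial UMIs were kept. Scrublet scores (scanpy 1.11.5) ranked doublets, and the highest 0.8% per 1000 nuclei were removed (10255), because its own threshold marked under 0.5% in several libraries. All libraries were clustered together (2000 variable genes, 30 components, 15 neighbours, Leiden resolution 1) without the members, the pathway lists, Ucp1, Cyp2e1, mitochondrial, ribosomal and sex-linked genes, giving 28 clusters. A cluster was named from marker lists when at least 3 markers were found and 2 further rules were met. Its score had to be at least 1.5 times that of any second class with 3 markers found. No other class could have more markers among its 10 leading genes. A shallow cluster also needed a marker of its own class among those. By these rules 4 clusters stayed unnamed. Counts were summed per class and library, scaled to 1e+06 and compared as log2(CPM + 1). Plain ratios carry exact conditional binomial intervals at 95%. Positions came from GENCODE M21 and promoters from RefSeq, which gave 6 members a row and Pdp1 none. edgeR 4.0.16 supplied TMM factors. Other tools were Python 3.11.15, numpy 2.4.6 and scipy 1.17.1.

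The members, lists and comparisons were chosen with earlier results of these data known. Named genes are the 7 members, up to 3 genes per pathway list with the largest difference among those past 2-fold, and the 3 genes most like each member; some genes that this rule names are not reported here. Upk1a, Upk3a, Nnat, Mest, Ppara in iBAT, Angptl4 and further single genes outside that rule were named after their values were seen. The alternatives without a mitochondrial limit, without the cluster led by uroplakin genes, and within clusters and classes were chosen after seeing the data. Simulated counts with known changes were also run through the ratio code.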

Additional observations from a re-analysis of the deposited data

Results flagged for a closer look

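Pairs of depots differed in opposite directions under the same contrast, each by at least 1.5-fold with 1 CPM added and with intervals that excluded 1, in 2 cases. Smaller opposite differences are not listed. The difference was not tested in either case, since each depot has 1 library per age. Pdha1 from 2 to 6 months was at a log2 ratio of 0.84 in iBAT and of -2.27 in lPRAT. In lPRAT a lower 6-month level was also found in ASPC-like, macrophage-like, dendritic-like and mesothelial-like nuclei. Pdk1 from 1 to 6 months was at -1.19 in mPRAT and at 0.71 in iBAT. In mPRAT it was lower in all 4 clusters present at both ages, which are parts of the same libraries and so are no replicates.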

How the results depend on the processing

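Of 147 member ratios, 37 were at least 2-fold apart. All 37 kept their sign in every alternative run, and 17 also stayed past 2-fold in each. Of 103 ratios whose interval excluded 1, 97 kept their sign in each. The number of members apart, given first as reported, moved as follows. With TMM factors it went from 1 to 0 in mPRAT for 2 against 1 and 6 against 1 month, and from 0 to 1 in iBAT for 6 against 1 month, in mPRAT against iBAT in cold and in lPRAT against iWAT. With the mean of single-nucleus CPM it went from 1 to 0 in all 3 mPRAT age comparisons, in mPRAT in cold and in mPRAT against iBAT at 6 months, and from 0 to 1 in mPRAT against iBAT at 2 months and lPRAT against iWAT. Adding 10 CPM took 1 to 0 in all 3 mPRAT age comparisons, in cold in mPRAT and iBAT and in mPRAT against iBAT at 1 and 6 months, and gave 2 of 4 in mPRAT against lPRAT at 6 months, 2 of 5 in iBAT against iWAT at 6 months and 3 of 5 in mPRAT against iWAT in cold. A minimum of 1000 UMIs per nucleus took 1 to 0 in mPRAT for 6 against 2 months, and a minimum of 100 counts did so there and in mPRAT against iBAT at 6 months. The per-nucleus marker gate, with and without the mitochondrial limit, took 1 to 2 in mPRAT for 6 against 1 month, 1 to 0 in cold mPRAT and in mPRAT against iBAT at 6 months, and 0 to 1 in lPRAT against iWAT. Without the cluster led by uroplakin genes the number was 2 for mPRAT in cold, 3 for mPRAT against iBAT in cold (Pdk4 at -2.14, Pdk2 at -1.08, Pdp2 at -1.01) and 2 for mPRAT against iWAT in cold, against 1, 0 and 5. Of all genes in that setting 5.36%, 12.9% and 14.1% were higher and 6.55%, 8.97% and 4.64% lower, in the same order. Keeping doublets, a mitochondrial limit of 5%, leaving mitochondrial genes out of the total and Leiden resolution 2 moved no number by over 1.5 times.

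No paired analysis was possible because each group has 1 library. Intervals cover counting error only, so differences between animals cannot be told from differences between groups. Pdk3 rested on 4 to 177 UMIs and Pdp1 on 11 to 163 UMIs per library. Pdk3 in mPRAT in cold (ratio 0.515, 0.266 to 0.930) turned to a log2 value of 0.20 with the mean of single-nucleus CPM, and Pdk1 in mPRAT against iBAT in cold went from 0.17 to -0.14 with TMM factors.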
